A study of Homo sapiens with 15 samples.

Results

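The genes described here are 51 genes of mitosis and chromosome segregation. They were chosen by name from known roles in cell division, with earlier results of these data known. All 51 are among the 4872 genes that occur in 4 deposited expression tables of WI-38 cells. WI-38 is a line of human fetal lung fibroblasts that divides a limited number of times in culture before it becomes senescent. RNA was sequenced from 15 libraries in 5 groups of 3: cells at PD30 (30 generations), and cells at PD45 (45 generations) as a control, with siSRC2, with siSRC4 or with GW8510. The design text calls the intervention cells senescent, and each table compares 1 group with the PD45 control. GW8510 is a small molecule known to inhibit cyclin-dependent kinases, and SRC encodes a tyrosine kinase.

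By the labels, every group received the lipofection reagent lipo3000. The PD30 control had lipo3000 and DMSO. The PD45 control had DMSO and lipo3000 with NC, which is read here as a control siRNA, so passage and NC cannot be told apart between PD30 and PD45. The siSRC2 and siSRC4 libraries had DMSO and lipo3000 with siSRC, and the numbers 2 and 4 stand only in their titles. The GW8510 libraries had lipo3000 with NC and no DMSO, so the compound and the absence of DMSO cannot be told apart. Dose and duration of GW8510 are not given in the labels. Whether the 3 libraries of a group are separate cultures is not in the labels, and the p-values below rest on the spread among them, which may be technical.

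To divide, a cell must condense its chromosomes, attach each sister chromatid through a kinetochore to spindle microtubules, hold back separation until all are attached, pull the sisters apart and split its cytoplasm. Cyclins bound to CDK1 start this sequence, and the anaphase-promoting complex with CDC20 ends it by marking cyclin B and securin for destruction. Genes for these steps are transcribed late in the cell cycle, driven by B-MYB (MYBL2), FOXM1 and NF-Y and repressed in resting cells by the DREAM complex. Cells that have left the cycle, senescent fibroblasts among them, are known to express them at low levels.

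Values below are the deposited normalized signal per library, whose exact unit (TPM or FPKM) the file headers do not give, and a ratio is a ratio of mean signals unless the authors' fold is named. Read depth is unknown. Each table holds only genes that passed the authors' adjusted p of 0.05 and fold of 1.5, called listed below. For a gene that a table does not hold, nothing is known of that comparison, and its absence does not show that it was unchanged. SRC read 18.95, 20.47 and 19.88 in the PD45 control, 11.60, 10.60 and 11.61 with siSRC2 and 9.51, 11.11 and 11.77 with siSRC4. These means are 57.0% (siSRC2) and 54.6% (siSRC4) of the PD45 mean. Of 11 fibroblast markers, COL3A1, PDGFRA and VIM were listed higher at PD30. With GW8510, FN1 (2.66-fold) and FAP (1.99-fold) were lower and COL3A1 higher (ratio 1.76), and COL3A1 was also higher with siSRC2 (1.96). Of 5 epithelial markers, KRT8, KRT18 and KRT19 were listed lower at PD30, with summed signals of 50.8 to 56.5 at PD30 and 162 to 188 in the PD45 control. KRT19 was also higher with GW8510 (204 to 251 against 123 to 148) and lower with siSRC2 (72.3 to 75.1). The part of these markers in the results below was not tested. No endothelial marker was listed in any table, and of the leukocyte markers only CD68 was, lower with GW8510. In whole cultures, fewer dividing cells and less RNA per cell cannot be told apart.

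Every mitosis gene was higher at PD30 than at PD45, most of them several-fold. All 51 were listed higher, against 8.24% of the 18575 genes the authors tested, and the genes had been named with these tables known, so that count is a description. Summed over the 51 genes, signal was 1008, 1032 and 1091 in the PD30 libraries and 188, 167 and 171 in the PD45 control. The PD30 libraries lay above every PD45 library for all 51 genes. Over the whole table, the 2 groups did not overlap, in either direction, for 93.6% of genes. The median ratio was 7.11, with a range from 1.62 for AURKA to 18.0 for SGO1, while the median over all genes listed higher was 2.17. By the authors' own fold, 48 of the 51 were at least 2-fold higher. So were 917 of the 1507 genes listed higher that had signal in both groups. When the table was re-tested with limma on log2(signal + 1), 49 of the 49 members whose mean signal reached 1 passed (adjusted p from 2.90e-08 to 0.000502), as did 97.3% of all listed genes that were re-tested. KIF14 and SGO1 lay below that signal minimum. It is a mean over both groups, and 17 of the 51 members, KIF14 and SGO1 included, had a PD45 mean under 1. The rest of those 17 entered the re-test only through their PD30 signal.

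**Figure D1:**
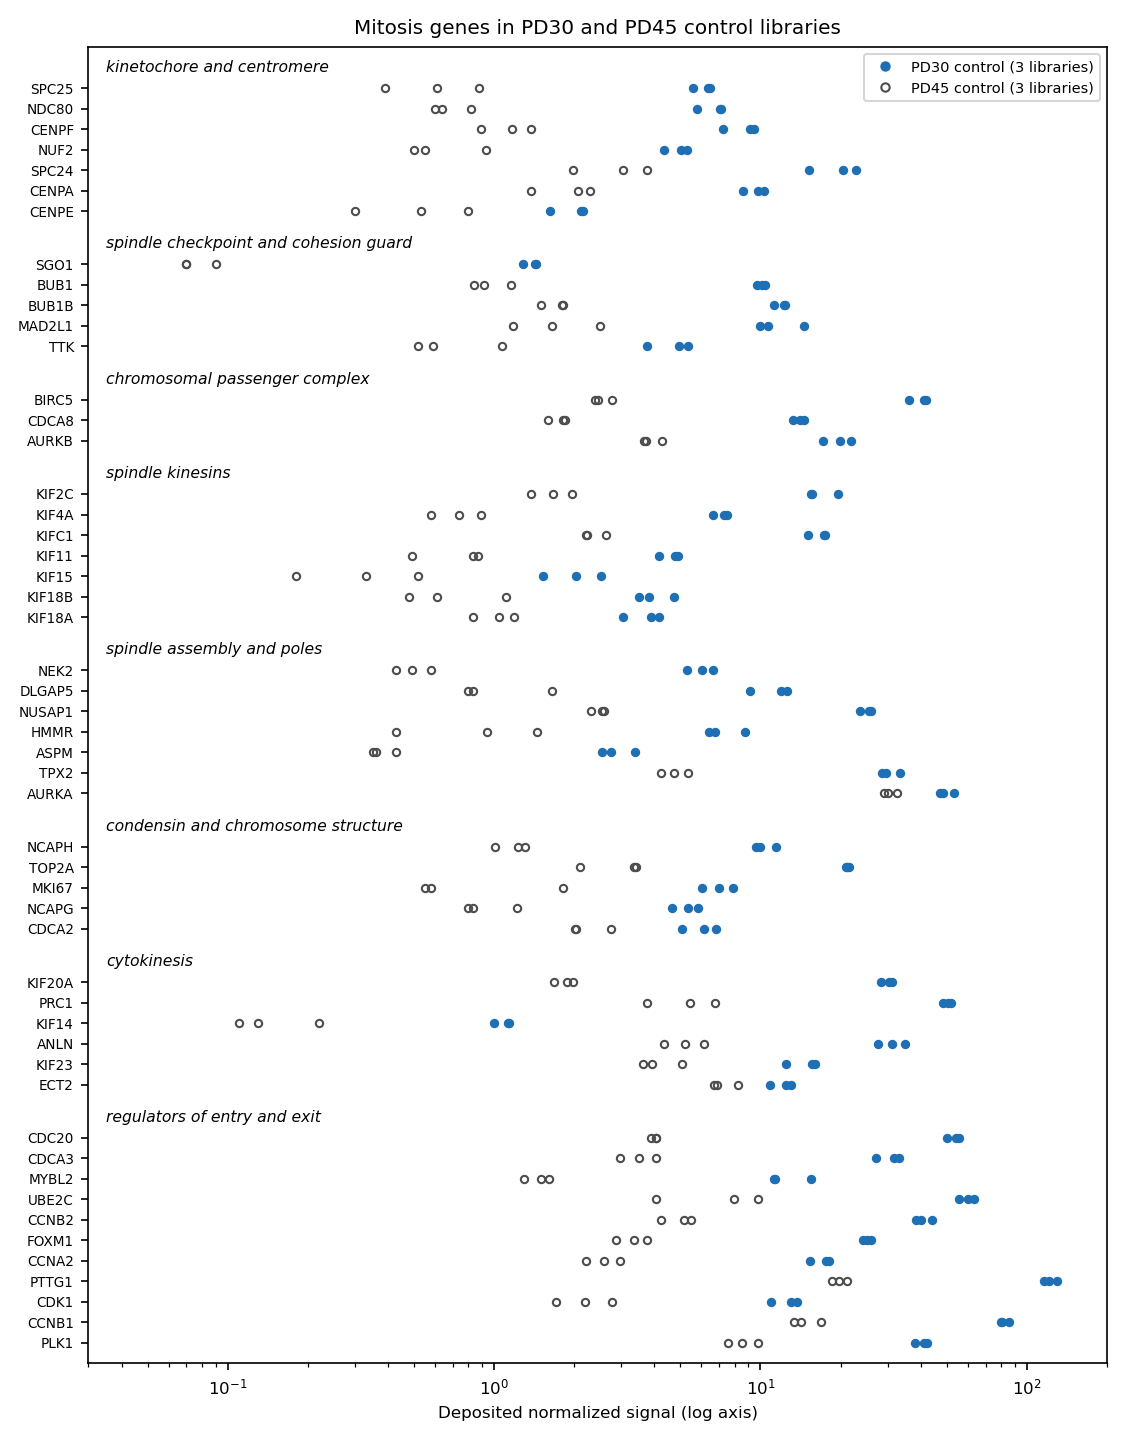
Deposited normalized signal (log axis) of the 51 mitosis genes in the 3 PD30 (filled) and 3 PD45 control (open) libraries, ordered by step. The PD30 points lie to the right of the PD45 points in every row, closest together for AURKA and ECT2.

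The promoters of these genes share short sequence elements that the choice of genes did not use. RefSeq promoter sequences (build GRCh38.p14, 250 bases before to 50 after the transcription start) were held for 44 of the 51 genes. The cell cycle homology region, searched as TTTGAA or TTTAAA on both strands, is the element bound by the DREAM and B-MYB complexes through LIN54. It occurred in the promoters of 37 of 44 members (84.1%), against 27.9% of all 27305 genes of the promoter table and 24.7% of the 15842 protein-coding ones. The NF-Y box, searched as CCAAT on both strands, occurred in 35 members (79.5%), against 39.7% of all genes and 42.1% of protein-coding genes. Both stood together in 29 members (65.9%), against 11.2% of all genes and 10.4% of protein-coding genes. E2F letters (TTTGGCG or TTTCGCG, both strands) were found in 5 members (11.4%), against 3.85% of all genes and 5.14% of protein-coding genes. A match describes letters and does not show that a factor binds there. Median GC content was 61.5% for the members' promoters and 62.3% for protein-coding ones.

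The 250 bases before the start are shown for 5 members because they cover the range of responses described below: cyclin B1 and 2 of the genes with the largest difference at PD30, the gene that came closest to its PD30 level with GW8510 (MYBL2), and a cyclin that fell with siSRC4 (CCNA2). Sequences run from the far end to the base before the start, in the direction of the gene. Capitals mark the cell cycle homology region and the NF-Y box, each on either strand. CCNB1 lies at chr5:69166900-69167149 (plus strand), CDC20 at chr1:43358731-43358980 (plus), KIF20A at chr5:138178862-138179111 (plus), MYBL2 at chr20:43666864-43667113 (plus) and CCNA2 at chr4:121823884-121824133 (minus).
CCNB1: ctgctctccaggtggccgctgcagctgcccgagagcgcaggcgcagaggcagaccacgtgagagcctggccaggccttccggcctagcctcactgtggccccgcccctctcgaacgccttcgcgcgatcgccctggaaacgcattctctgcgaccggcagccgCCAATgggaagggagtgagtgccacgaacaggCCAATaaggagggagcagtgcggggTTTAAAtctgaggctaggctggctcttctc
CDC20: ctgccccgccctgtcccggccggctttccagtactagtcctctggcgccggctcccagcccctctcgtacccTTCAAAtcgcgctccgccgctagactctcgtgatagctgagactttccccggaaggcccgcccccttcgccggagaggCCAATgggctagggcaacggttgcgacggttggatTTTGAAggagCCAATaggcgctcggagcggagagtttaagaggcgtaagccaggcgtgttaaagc
KIF20A: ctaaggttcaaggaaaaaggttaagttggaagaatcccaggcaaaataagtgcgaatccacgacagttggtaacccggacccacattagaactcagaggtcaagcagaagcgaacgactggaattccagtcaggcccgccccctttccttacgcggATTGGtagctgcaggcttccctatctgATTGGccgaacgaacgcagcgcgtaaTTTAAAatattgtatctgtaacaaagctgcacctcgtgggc
MYBL2: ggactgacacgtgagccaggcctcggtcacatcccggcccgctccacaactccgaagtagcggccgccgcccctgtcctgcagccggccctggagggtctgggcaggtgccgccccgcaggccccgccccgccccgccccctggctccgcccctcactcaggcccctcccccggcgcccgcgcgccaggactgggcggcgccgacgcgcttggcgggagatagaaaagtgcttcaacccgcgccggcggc
CCNA2: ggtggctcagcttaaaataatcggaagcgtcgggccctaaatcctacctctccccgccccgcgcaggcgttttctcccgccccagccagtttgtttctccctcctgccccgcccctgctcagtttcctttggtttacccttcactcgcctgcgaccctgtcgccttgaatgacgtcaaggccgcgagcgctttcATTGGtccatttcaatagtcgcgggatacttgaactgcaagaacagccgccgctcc
In CCNB1 the NF-Y boxes begin at -87 and -55 and the homology region at -30. CDC20 has its boxes at -100 and -55, with homology letters between them at -65 and farther out at -178. KIF20A carries the boxes in reverse at -94 and -67, followed by the homology region at -41. CCNA2 matched the NF-Y box only, at -56, and MYBL2 was the only one of the 44 members with none of the searched letters in its window. Only those exact letters were searched, so a missing match does not show that a promoter lacks the element. Over the 34 members with a single promoter entry and a match, the homology region had a median position of -29. The NF-Y box sat farther upstream, with a median of -71 over 31 members.

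**Figure D2:**
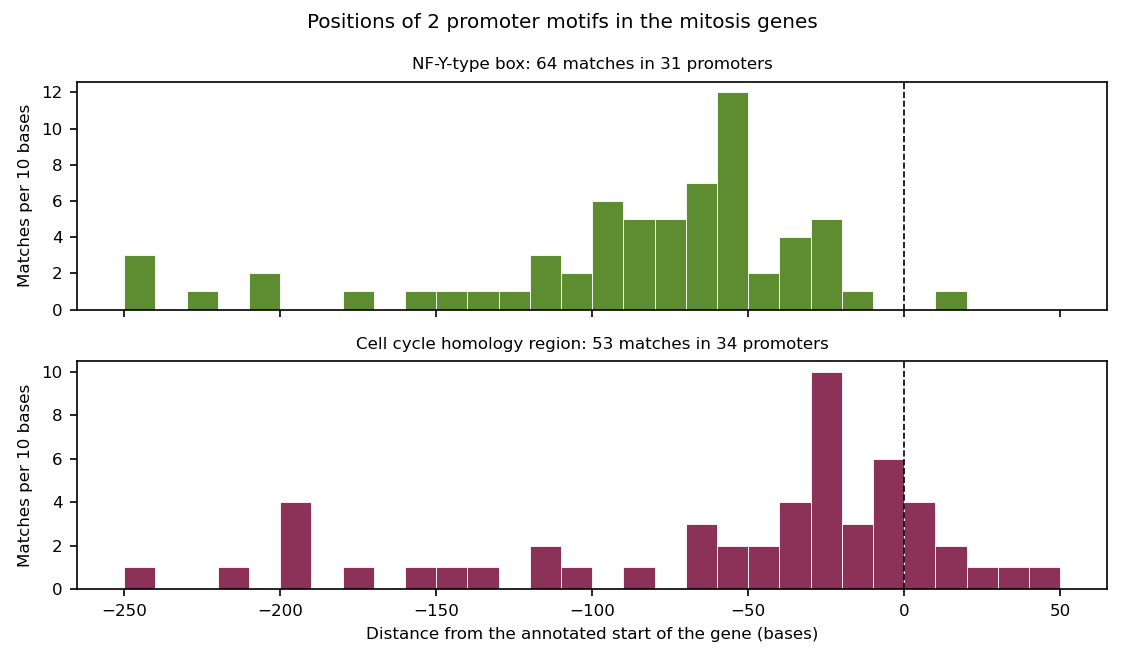
Number of matches by distance from the transcription start (0 is the first transcribed base) in members with a single promoter entry, for the NF-Y-type box (top) and the cell cycle homology region (bottom), in steps of 10 bases. Of 53 homology-region matches 40, and of 64 NF-Y matches 48, lie from 100 bases before to 50 bases after the start.

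The kinetochore genes encode the plate that grips microtubules at each centromere, and all 7 were higher at PD30, with a median ratio of 7.41. SPC25, a subunit of the microtubule-binding NDC80 complex, read 5.6, 6.38 and 6.46 at PD30 and 0.88, 0.39 and 0.61 at PD45, a ratio of 9.81. Its partners had ratios of 9.67 (NDC80), 7.41 (NUF2) and 6.66 (SPC24), so RNA signal was several-fold higher for every gene of the complex. CENPA, the histone H3 variant that marks centromeres, read 8.58, 9.75 and 10.31 at PD30 and 1.37, 2.3 and 2.06 at PD45. That ratio of 5.00 was the smallest among kinetochore genes with a PD30 mean signal of at least 5. CENPF, a large protein of the outer kinetochore, had a ratio of 7.52. CENPE, the kinetochore kinesin that moves chromosomes to the spindle equator, had the smallest ratio of the 7, at 3.61 with a PD30 mean of 1.96.

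The spindle checkpoint delays anaphase until every kinetochore is attached, and its 4 genes here were 6.45 to 10.4 times higher at PD30. BUB1, a checkpoint kinase, read 10.16, 9.67 and 10.42 at PD30 and 0.84, 0.92 and 1.16 at PD45, a ratio of 10.4. MAD2L1, which restrains CDC20, read 9.96, 14.62 and 10.67 against 1.18, 2.49 and 1.65, a ratio of 6.63. BUB1B, which works with MAD2L1 in that inhibitor, had a ratio of 7.03. TTK, the kinase at the top of the checkpoint, had a ratio of 6.45. SGO1, which protects cohesion between sister centromeres, had the largest ratio of all members, 18.0, on very low signals: 1.43, 1.28 and 1.44 at PD30 and 0.07, 0.07 and 0.09 at PD45.

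The chromosomal passenger complex corrects faulty attachments and its 3 members differed widely in size of change. BIRC5, or survivin, read 40.94, 41.92 and 36.26 at PD30 and 2.46, 2.4 and 2.78 at PD45, a ratio of 15.6. AURKB, the kinase of the complex, read 21.89, 17.2 and 19.85 and 4.26, 3.71 and 3.64, a ratio of 5.08. CDCA8, or borealin, lay between them at 7.97.

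The spindle kinesins move or shorten microtubules, and all 7 were higher at PD30, with a median ratio of 6.31. KIF2C, which depolymerizes microtubules, read 15.49, 15.64 and 19.48 at PD30 and 1.96, 1.38 and 1.66 at PD45. Its ratio of 10.1 was the largest of the kinesins. KIFC1, a minus-end-directed motor, read 17.36, 15.12 and 17.5 against 2.64, 2.21 and 2.24, a ratio of 7.05. KIF4A, which travels on chromosome arms, had a ratio of 9.69 and KIF11, which pushes spindle poles apart, one of 6.31. KIF15, which supports KIF11, KIF18B and KIF18A, which dampens chromosome movements, had ratios of 5.91, 5.49 and 3.63.

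Among the 7 genes of spindle assembly and poles, NEK2, a kinase that separates centrosomes, read 5.28, 6.04 and 6.65 at PD30 and 0.58, 0.49 and 0.43 at PD45, a ratio of 11.98. AURKA, the centrosomal kinase, read 48.32, 47.1 and 53.27 against 32.42, 29.14 and 30.18, a ratio of 1.62. AURKA was thus the member with the smallest ratio and also the one with the highest signal at PD45. Its activator TPX2 had a ratio of 6.40. The microtubule binders DLGAP5, NUSAP1 and HMMR had ratios of 10.3, 10.1 and 7.76, and ASPM, a protein of spindle poles, one of 7.60.

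Genes that shape mitotic chromosomes had a median ratio of 7.10. NCAPH, a condensin subunit, read 9.66, 9.97 and 11.44 at PD30 and 1.23, 1.01 and 1.31 at PD45, a ratio of 8.75. CDCA2, which brings a phosphatase to chromosomes at mitotic exit, read 5.08, 6.12 and 6.8 against 2.74, 2.01 and 2.03, a ratio of 2.65. TOP2A, the topoisomerase that untangles sister DNA, had a ratio of 7.16, and the condensin subunit NCAPG 5.55. MKI67, which coats mitotic chromosomes and is the Ki-67 proliferation marker, read 6.03, 7.01 and 7.9 at PD30 and 1.82, 0.55 and 0.58 at PD45. The first PD45 library stood above the other two for MKI67, and without it the ratio moved from 7.10 to 12.4.

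Cytokinesis genes spanned the range from a small to a very large difference. KIF20A, a kinesin of the central spindle, read 30.25, 28.36 and 31.07 at PD30 and 1.87, 1.68 and 1.98 at PD45, a ratio of 16.2. ECT2, the exchange factor that activates RhoA at the cleavage site, read 10.83, 12.45 and 13.03 against 6.84, 8.22 and 6.68, a ratio of 1.67. PRC1, which bundles the midzone microtubules, had a ratio of 9.45, KIF14 7.11, the ring scaffold ANLN 5.96 and KIF23, a centralspindlin motor, 3.49. AURKA and ECT2 were the members with ratios under 2, and both kept PD45 signals above 6 in every library.

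Regulators of entry and exit had a median ratio of 7.57. CDC20, the activator of the anaphase-promoting complex, read 54.07, 50.32 and 55.57 at PD30 and 4.07, 4.07 and 3.87 at PD45, a ratio of 13.3. PLK1, a kinase with roles throughout mitosis, read 42.13, 38.02 and 40.99 against 8.52, 7.58 and 9.79, a ratio of 4.68. The authors' deposited table gives PLK1 a smaller fold of 1.56. CDK1 had a ratio of 5.65. Its partners CCNA2, CCNB1 and CCNB2 stood at 6.60, 5.54 and 8.23. UBE2C, the ubiquitin-conjugating enzyme of the anaphase-promoting complex, had 8.24, PTTG1, or securin, 6.18, and CDCA3, a trigger of mitotic entry, 8.73. The transcription factors FOXM1 and MYBL2 had ratios of 7.57 and 8.63. PTTG1 reached the highest PD30 signal of all members, 116.28, 121.18 and 129.73.

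With GW8510, a part of the mitosis genes was modestly higher than in the PD45 control, and none was listed lower, where 7.26% of all tested genes were. The GW8510 table lists 24 of the 51, all higher, where 4.59% of the 15574 tested genes were listed higher. The median ratio was 1.75, from 1.26 for AURKB to 6.61 for SGO1, beside 1.60 for all genes listed higher. In 20 of the 24, every GW8510 library lay above every PD45 control library, while 90.6% of all listed genes did not overlap, in either direction. The libraries of AURKB, MKI67, KIF4A and KIF18B overlapped. In the limma re-test 19 of 21 members passed, beside 95.4% of all listed genes re-tested. AURKB and MKI67 did not pass (adjusted p = 0.119 and 0.164), and SGO1, KIF4A and KIF18B lay below the signal minimum. BUB1, which passed, and MKI67 had PD45 means of 0.973 and 0.983 and reached that minimum only through their GW8510 signal. This comparison shares its PD45 control libraries with the PD30 comparison, so high or low control values enter both.

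**Figure D3:**
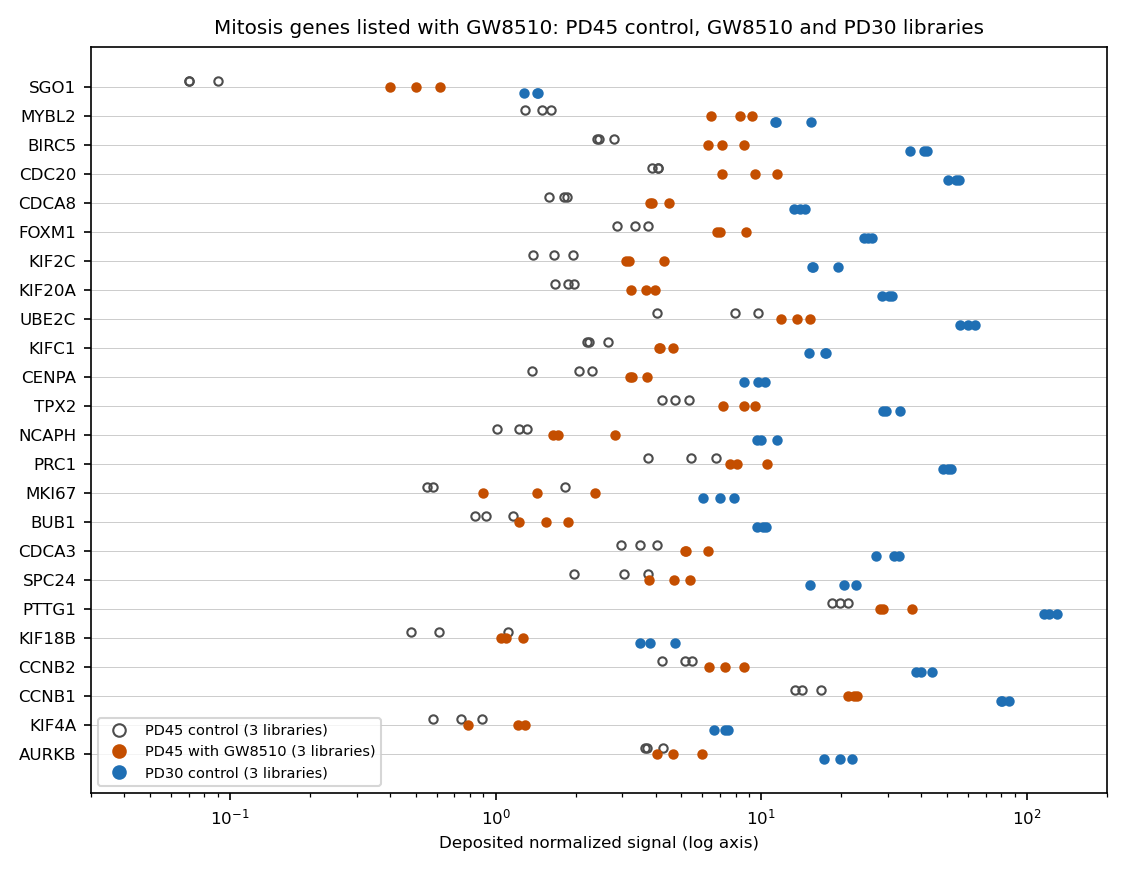
Signal (log axis) of the 24 listed mitosis genes in PD45 control (open), GW8510 (orange) and PD30 (blue) libraries, ordered by the GW8510 ratio. The GW8510 points lie between the control and PD30 points for most genes, nearest to PD30 for MYBL2, and overlap the control points for AURKB, MKI67, KIF4A and KIF18B.

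Regulators were the largest group, with 8 of 11 listed. MYBL2, the B-MYB transcription factor of late cell cycle genes, read 8.35, 6.48 and 9.25 with GW8510, 1.29, 1.61 and 1.5 in the PD45 control and 11.33, 11.22 and 15.43 at PD30. Its ratio to the control was 5.47 (difference on log2(signal + 1) 1.86 ± 0.15 SE, limma adjusted p = 1.37e-05). FOXM1, which acts with B-MYB, read 6.98, 6.84 and 8.73 with GW8510, 3.75, 3.36 and 2.87 in the control and 25.22, 24.3 and 26.07 at PD30. Both factors thus stood apart from the control in all libraries, FOXM1 at a ratio of 2.26 and with GW8510 libraries far below PD30. CDC20 read 11.47, 7.11 and 9.48 with GW8510, a ratio of 2.34 (adjusted p = 0.000328). UBE2C read 15.2, 11.88 and 13.65 with GW8510, 9.76, 4.05 and 7.97 in the control and 55.83, 59.97 and 63.57 at PD30. The control libraries of UBE2C spread more than the treated ones, and the ratio was 1.87.

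The B-type cyclins rose less. CCNB1 read 22.89, 21.18 and 22.31 with GW8510, 14.24, 13.39 and 16.81 in the PD45 control and 80.71, 80 and 85.39 at PD30, a ratio of 1.49 (adjusted p = 0.00122). CCNB2 read 6.34, 7.28 and 8.58, 5.49, 4.22 and 5.15 and 38.24, 39.96 and 44.07 in the same order, also a ratio of 1.49. Neither cyclin overlapped the control, and both stayed far under PD30. PTTG1, the securin that holds back separase, read 27.86, 28.59 and 36.97 with GW8510 against 21.16, 18.5 and 19.76, a ratio of 1.57. CDCA3 read 6.32, 5.15 and 5.19 with GW8510, 3.51, 4.04 and 2.97 in the control and 31.62, 27.06 and 33.11 at PD30, a ratio of 1.58. CDK1, PLK1 and CCNA2 are not in the GW8510 table.

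All 3 genes of the chromosomal passenger complex were listed. BIRC5 read 8.61, 6.28 and 7.1 with GW8510, a ratio of 2.88 (adjusted p = 8.82e-05), and its libraries were well apart from the control. CDCA8 read 4.51, 3.8 and 3.89 with GW8510, 1.85, 1.59 and 1.81 in the control and 14.03, 13.23 and 14.6 at PD30, a ratio of 2.32. AURKB read 4.64, 5.96 and 4.04 with GW8510 and did not separate from its control libraries. Of the 5 checkpoint and cohesion genes, SGO1 and BUB1 were listed. SGO1 read 0.5, 0.62 and 0.4 with GW8510, above the control but under 1 in every library. BUB1 read 1.55, 1.22 and 1.87, a ratio of 1.59 (adjusted p = 0.0296), and its lowest treated library lay just above the highest control library. The BUB1 call was lost when either GW8510 replicate 1 or 3, or either PD45 control replicate 1 or 2, was left out.

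Of the 7 kinetochore genes, SPC24 and CENPA were listed. CENPA read 3.25, 3.71 and 3.2 with GW8510, a ratio of 1.77 (adjusted p = 0.00402). SPC24, of the NDC80 complex, read 4.69, 3.78 and 5.37 with GW8510, 3.76, 1.98 and 3.04 in the PD45 control and 22.77, 20.46 and 15.24 at PD30. For SPC24 the ratio was 1.58 and the nearest libraries of the groups almost touched. Of the 7 spindle kinesins 4 were listed, led by KIF2C with 3.18, 3.11 and 4.3, a ratio of 2.12. KIFC1 read 4.65, 4.12 and 4.15, a ratio of 1.82. The chromosome-arm motor KIF4A read 1.21, 0.79 and 1.29 with GW8510, 0.89, 0.58 and 0.74 in the control and 7.29, 6.64 and 7.49 at PD30. KIF18B read 1.05, 1.09 and 1.27, 1.11, 0.61 and 0.48 and 3.81, 3.51 and 4.75 in that order. Both were near 1 with GW8510 and overlapped the control.

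Spindle assembly contributed 1 of 7 genes, the AURKA activator TPX2, which read 8.64, 7.15 and 9.48 with GW8510, 5.35, 4.22 and 4.74 in the PD45 control and 29.48, 28.68 and 33.39 at PD30 (ratio 1.77). Of the 5 chromosome-structure genes, NCAPH read 1.72, 1.65 and 2.82 with GW8510, a ratio of 1.74. MKI67 read 2.37, 0.9 and 1.43, spread widely in both groups, and its ratio moved from 1.59 to 2.77 without PD45 control replicate 1. Calls for NCAPH and SPC24 were lost without GW8510 replicate 3 or without PD45 control replicate 2. Of the 6 cytokinesis genes, KIF20A read 3.99, 3.22 and 3.69 with GW8510, a ratio of 1.97 (adjusted p = 0.000804). PRC1 read 7.63, 8.1 and 10.47 with GW8510, 5.44, 6.76 and 3.75 in the control and 48.29, 51.9 and 50.46 at PD30, a ratio of 1.64. Both cytokinesis genes were above the control in all libraries and several-fold under PD30.

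The levels with GW8510 stayed well under those at PD30. For all 24 listed members every GW8510 library lay below every PD30 library. The same separation was not counted over all genes, so this is a description of the members only. PD30 was 1.58 (MYBL2) to 8.23 (KIF20A) times higher, with a median of 4.31. In a direct limma comparison of the GW8510 and PD30 libraries, which leaves out the shared control, 23 of 23 members with sufficient signal were lower with GW8510 (adjusted p from 4.34e-08 to 0.00766). Of all 512 genes in both tables that were tested, 42.0% were lower with GW8510, and 66.7% of the 168 genes listed higher in both were. The share of the PD45 to PD30 distance covered with GW8510, in linear signal, had a median of 11.0% over the 24 genes and was under 20% for 22 of them. MYBL2 covered 58.6% (61.5%, 44.8% and 69.5% by GW8510 library) and SGO1 32.9%. KIF4A covered the least, 5.62%. On the log2(signal + 1) scale the median share was 23.7%.

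**Figure D4:**
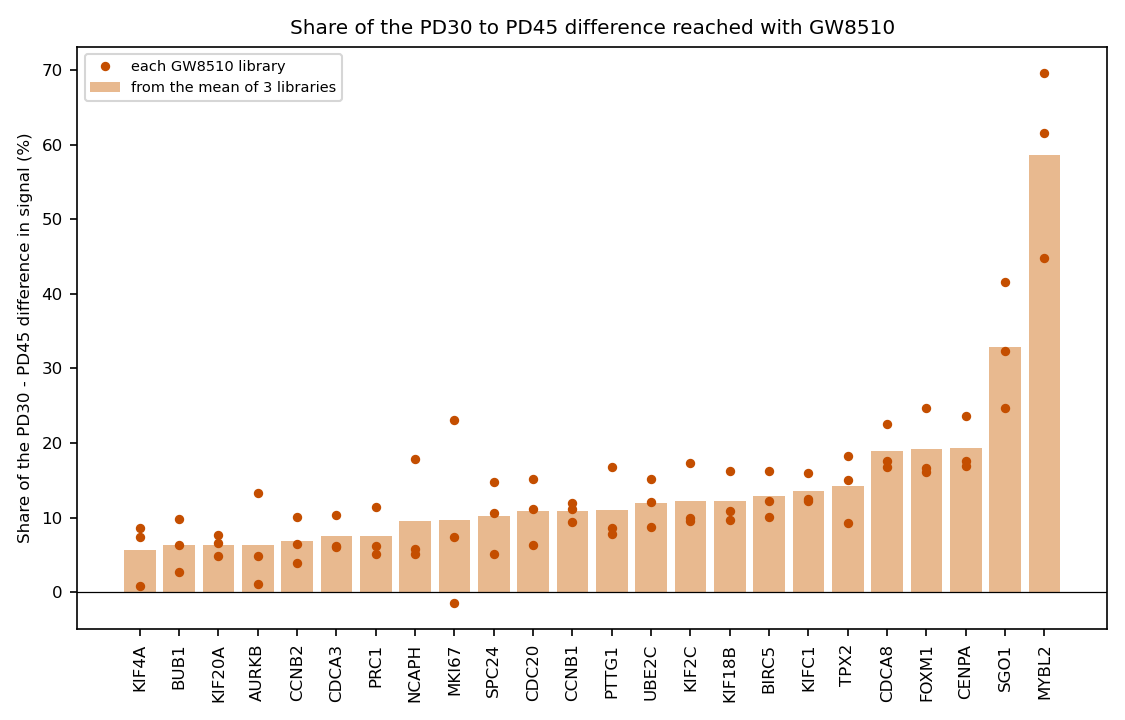
Share of the distance from PD45 control to PD30 signal reached with GW8510 (percent, linear signal) for the 24 listed mitosis genes, as bars for the mean and points for the 3 GW8510 libraries. The means run from 5.62% for KIF4A to 58.6% for MYBL2, and 22 of 24 lie under 20%.

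Listed and unlisted members differed in other measures too. The 24 listed with GW8510 had a higher PD45 signal (median 2.46, against 1.09 for the other 27) and a larger PD30 ratio (median 8.23 against 6.60). Their transcripts were shorter (median 2709 against 3725 bases) and richer in GC (median 49.6% against 40.0%). Over the whole GW8510 table, genes listed higher had a median transcript GC of 56.3% and genes listed lower 41.6%. Signal, GC content and length moved with the listing, and their part in it was not tested. Among members with a promoter entry, the homology region occurred in 15 of 20 listed and 22 of 24 unlisted genes. The NF-Y box occurred in 18 of 20 and 17 of 24.

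With siSRC4, 5 of the 51 members were listed, all lower. They are among the 27 members that the GW8510 table does not hold, and the overlap of the 2 tables over all genes was not counted. Of all 14598 tested genes, 4.86% were listed lower and 3.91% higher. None of the 5 overlapped the control, as was so, in either direction, for 88.8% of all genes in that table. The median decrease was 1.73-fold, beside 1.63-fold for all genes listed lower. In the limma re-test, AURKA, ANLN and CCNA2 passed (3 of 3 tested, beside 93.7% of all genes re-tested), and NCAPG and TTK were under the signal minimum. This comparison too uses the same PD45 control libraries.

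AURKA read 17.53, 16.44 and 19.13 with siSRC4 against 32.42, 29.14 and 30.18 in the PD45 control, or 1.73-fold lower (adjusted p = 0.000549). The 2 groups of AURKA libraries lay far apart, and PD30 was 2.80 times the siSRC4 level. ANLN read 4.05, 3.34 and 2.7 with siSRC4, 6.16, 5.2 and 4.34 in the control and 27.72, 31.09 and 34.78 at PD30, 1.56-fold lower than the control (adjusted p = 0.0168). CCNA2, the cyclin of S phase and early mitosis, read 1.93, 1.66 and 1.49, 2.96, 2.58 and 2.21 and 15.37, 17.67 and 18.13, 1.53-fold lower (adjusted p = 0.0178). For both, the highest siSRC4 library stood only a little under the lowest control library. NCAPG read 0.65, 0.46 and 0.31 with siSRC4, 0.83, 1.22 and 0.8 in the control and 4.64, 5.83 and 5.36 at PD30. TTK read 0.28, 0.18 and 0.27, 0.59, 0.52 and 1.07 and 3.76, 4.94 and 5.36 in the same order. Their signals were near or under 1 at PD45, at 2.01-fold and 2.99-fold lower with siSRC4.

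Without PD45 control replicate 1, ANLN and CCNA2 no longer passed (highest adjusted p = 0.0646) and 1 member was left. That library had the highest signal of its group for 30 of the 51 members. How often it was highest over all genes was not counted. Without siSRC4 replicate 2, CCNA2 did not pass (adjusted p = 0.0522). Against PD30, all 5 were lower with siSRC4 by limma (adjusted p from 2.59e-08 to 2.99e-07), where 25.9% of the 374 genes in both tables were lower. That direction was already fixed by their place in the tables, so the p-values are no separate support. NCAPG and TTK, with siSRC4 means of 0.473 and 0.243, reached the signal minimum here only through their PD30 means of 5.28 and 4.69.

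**Figure D5:**
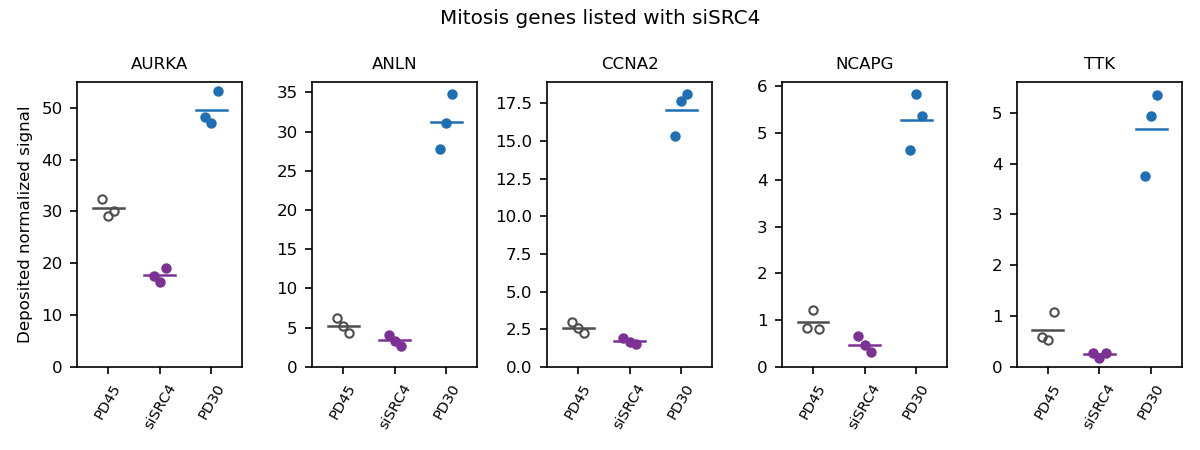
Deposited normalized signal (linear axes starting at 0, 1 panel per gene) of the 5 mitosis genes listed with siSRC4, with points for libraries and lines for group means. The siSRC4 points lie under the PD45 control points in each panel, and PD30 is 2.80 (AURKA) to 19.3 (TTK) times the siSRC4 level.

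With siSRC2, none of the 51 members was listed, where 2.64% of the 12549 tested genes were. None could therefore be re-tested in these libraries, by limma or at an unadjusted p. Whether siSRC2 and siSRC4 differ in their effect on AURKA or the other 4 genes could not be tested, since the siSRC2 table lists none of them.

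A further 107 genes of the same steps outside the 51 were also counted, from lists likewise chosen with earlier results of these data known. At PD30, 68 of the 107 were listed, all 68 higher by the authors' fold. Over all genes the authors tested in that comparison, 8.24% were listed higher and 7.07% lower. Among other kinetochore genes (21 of 33 listed), OIP5, which helps load CENPA, had the largest ratio, 10.2, and ZW10 the smallest, 1.59. For condensin and cohesin genes (9 of 17) the ends were NCAPG2 at 4.86 and RAD21, the cohesin kleisin, at 1.55. CEP55, of abscission, had 7.83 and RACGAP1, of centralspindlin, 4.09 among cytokinesis genes (4 of 6). Other regulators (15 of 27) ran from the phosphatase CDC25A at 1.43 to CDC25C at 9.25. Spindle and centrosome genes (19 of 24) were led by TROAP at 8.77. CEP152, of centriole duplication, was listed higher but had lower mean signal at PD30 (1, 0.94 and 0.82 against 0.47, 2.17 and 0.40), with 1 high PD45 library.

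With GW8510, 31 of the 107 were listed, 19 higher and 12 lower, so these genes split by direction where the 24 members did not. Of all genes tested, 4.59% were listed higher and 7.26% lower. Condensin and cohesin genes were mostly lower, 6 of the 7 listed. STAG2, a cohesin subunit, read 5.45, 5.38 and 6.12 with GW8510 and 12.87, 13.55 and 12.68 in the control, 2.31-fold lower. PDS5B, a cohesin regulator, had the smallest change of the group, 1.74-fold lower. SMC4 (2.20-fold), SMC3 (1.99-fold), SMC2 (1.87-fold) and STAG1 (1.85-fold), chosen after their values were seen, were the other 4 that fell. CDCA5, or sororin, which stabilizes cohesin on sister chromatids, rose with a ratio of 2.18. None of these 7 overlapped the control, beside 90.6% of all listed genes.

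Other kinetochore genes were split, 6 higher and 4 lower, with INCENP, the scaffold of the passenger complex, at a ratio of 1.38. Spindle and centrosome genes were 5 higher and 2 lower, GTSE1 at a ratio of 2.21 and CKAP2 1.53-fold lower. Cytokinesis genes numbered 3 higher, CEP55 at 1.84 and CIT at 1.13 with overlapping libraries. The 4 listed regulators were higher, from CCNF, or cyclin F, at 1.51 to PKMYT1, an inhibitory kinase of CDK1, at 3.29. The 19 higher genes had a median transcript GC of 55.3% and length of 2638 bases, and the 12 lower genes 37.4% and 5124 bases. The part of GC content and length in this split was not tested.

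With siSRC4, 7 of the 107 were listed, all lower, where 4.86% of all tested genes were listed lower. Of the 7, 3 did not overlap the control, beside 88.8% of all genes in that table. SGO2, a cohesion protector, was 1.96-fold lower and SMC3 1.48-fold lower with overlapping libraries. HAUS1, of the augmin complex, was 1.64-fold and CKAP2 1.43-fold lower. CKS2, a subunit of cyclin-dependent kinases, read 36.65, 35.94 and 33.22 with siSRC4 and 58.73, 50.03 and 58.11 in the control, 1.58-fold lower. CKS2 was likewise lower with siSRC2, at 35.27, 42.33 and 34.91, or 1.48-fold. The other gene listed with siSRC2 was CDKN3, a phosphatase that acts on cyclin-dependent kinases, at 3.70, 2.52 and 2.38 against 5.15, 5.25 and 6.83, or 49.9% of the control. Neither gene overlapped its control libraries in the siSRC2 table, as was so, in either direction, for 90.6% of all genes listed there. These were 2 of the 107, where 1.26% of all tested genes were listed lower with siSRC2.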

How the data were processed

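RNA-seq values were taken from 4 tables, all against the PD45 control. The deposited columns, per the file headers, are a normalized signal for each of 6 libraries, the authors' fold ratio, log2 fold change, p-value and adjusted p-value. Tools named in the submitters' processing notes, with no version or role, are HISAT2, StringTie, RSEM, CASAVA, edgeR and DESeq2. The notes also name the mouse build GRCm38, although all gene identifiers are human. Tables were matched to groups by their library column names: the table whose mean column reads siSRC2 holds libraries named siSRC4, and the one that reads siSRC holds those named siSRC2.

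The deposited signal was used as given, with means, SD and ratios computed in Python 3.11.15 with pandas 2.3.3, numpy 2.4.6 and scipy 1.17.1, and figures in matplotlib 3.10.9. Listed genes whose mean signal over both groups reached 1 entered a limma fit (3.58.1, R 4.3.3) of log2(signal + 1). A gene low in 1 group could thus enter through the other. The fit used a mean-variance trend, 3 libraries against 3, and Benjamini-Hochberg adjustment over the table at 0.05. The re-test holds only within the authors' selection, and differences on that scale understate changes of low genes. The fit was also run on simulated signals with normal noise and known changes. That run checks the code and says nothing about the effect of the authors' selection. The number of genes the authors tested was derived from the deposited p-values and adjusted p-values. Transcript length and GC content came from GENCODE v29, promoters from RefSeq.

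The members and gene lists were chosen with earlier results of these data known. Values in every library are given for members in more than 1 table and, per step, for the highest and lowest PD30 ratio among members with a PD30 mean of at least 5. Of the other genes, the largest and smallest change per list and table are named, except 1 gene that is not reported here. Replicate numbers in the titles were checked for pairing by the correlation of deviations from group means over the genes of a table. Every pair exceeded 0.1 for siSRC4 (0.122, 0.107 and 0.136), so the numbers count as pairs there, and not for PD30 (0.01, -0.0316 and -0.112), GW8510 (0.107, 0.024 and 0.04) or siSRC2 (0.0891, 0.0883 and 0.218). The printed values come from the fit without the block for every comparison, and the closing section gives the counts with it. Alternatives changed the pseudocount, signal minimum, trend, fold, scale, block and libraries used.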

Additional observations from a re-analysis of the deposited data

How the results depend on the processing

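The tables hold selected genes without read counts, so depth limits cannot be stated, and members missing from a table have no value. Counts of members passing the limma re-test fell with a signal minimum of 5, to 32 for PD30, 8 for GW8510 and 1 for siSRC4, because fewer genes were tested. Requiring an authors' fold of 2 left 9 for GW8510 and 0 for siSRC4, again from fewer genes. Without a signal minimum siSRC4 had 5. Leaving out each library in turn gave 49 to 49 for PD30, 16 to 19 for GW8510 and 1 to 3 for siSRC4. It gave 23 to 23 for GW8510 against PD30 and 5 to 5 for siSRC4 against PD30. The median share of the PD30 distance was 23.7% on the log2 scale, and 10.2% to 13.0% with each library left out. For siSRC2 no member entered a fit, so its count of 0 under every setting says nothing about stability. Counts did not change with a pseudocount of 0.1, nor without the trend in the comparisons with the PD45 control, where alone it was run, and shifting the signals to the authors' scale added AURKB for GW8510 (20 members).

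With the replicate block, 49 members passed for PD30, 20 for GW8510 (MKI67 was added), 3 for siSRC4, 23 for GW8510 against PD30 and 5 for siSRC4 against PD30, so no call was lost in these. In siSRC2 every library correlated best with its own number, without every pair passing the limit. The alternatives for siSRC4 against PD30 and the protein-coding promoter background were added after the data were seen. In the 250 bases before the start only, 29 members had the homology region, 35 the NF-Y box and 24 both.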

Other observations

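For 4 members the authors' fold at PD30 and the ratio of the deposited mean signals differed by more than 1.5 times. PLK1 had a signal ratio of 4.68 and an authors' fold of 1.56, and CENPA 5.00 and 2.83. In CENPE and HMMR the authors' deposited table gives the larger value, 6.36 beside a signal ratio of 3.61 and 12.4 beside 7.76. All 4 kept the same direction on both scales, and the remaining 47 members differed by less.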
